A study of Rattus norvegicus with 6 samples.

Results

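Cd36 and 9 other genes of fatty acid uptake, binding, storage and breakdown were followed in cells grown from rat aorta. The 10 genes were chosen by function and found by symbol among 16770 rows of the estimated count table, and all 10 were among the 12614 genes that passed the filter on low counts. The tested strain was the spontaneously hypertensive rat (SHR), an inbred line that develops high blood pressure, and it was set against Wistar Kyoto (WKY), the normotensive inbred strain used as its control. Each strain gave 3 libraries of total RNA from animals aged 3 months. Replicate 3 of each strain belonged to batch 2 and replicates 1 and 2 to batch 1; the labels give batch only as a number. The labels name no treatment and no engineered allele. Both strains were cultured alike from the part of the aorta next to the heart, laid endothelium down, in a serum-containing medium made for endothelial cells. The labels do not say whether each library came from its own animal, so p-values measure the spread between libraries.

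Long-chain fatty acids reach cells bound to albumin or inside lipoproteins. Lipoprotein lipase (Lpl) frees them from triglyceride at the vessel wall, the membrane protein CD36 takes them up, and small cytosolic binding proteins (Fabp) carry them. They are stored as triglyceride in droplets coated by perilipins such as Plin2, released again by adipose triglyceride lipase (Pnpla2) and hormone-sensitive lipase (Lipe), and burned after Cpt1a links them to carnitine for entry into mitochondria. The nuclear receptor PPAR gamma (Pparg) binds fatty acids and turns on several of these genes. Endothelial cells of heart, muscle and fat capillaries are known for high CD36 and FABP4.

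Totals lay between 18462051 and 19947278 estimated counts per library. The label of endothelial cells was not borne out by several of its defining markers. VE-cadherin (Cdh5) had at most 0.105 CPM in any library, Tie1 at most 0.0520, von Willebrand factor (Vwf) at most 0.936 and Pecam1 at most 2.18, and 7 of 13 measured endothelial genes stayed below 1 CPM in all libraries. The sum of that list, 184 to 300.0 CPM in SHR and 141 to 653 in WKY, was mostly endoglin (Eng), which mesenchymal cells also make. Other genes of the list were present at lower levels. Egfl7 had 6.39 to 27.2 CPM over all libraries, and Sox17 at most 3.01. Tek had 4.72 to 9.38 CPM in SHR and 0.435 to 1.85 in WKY, without overlap. The summed fibroblast list reached 14881 to 24274 CPM in SHR and 6057 to 16844 in WKY, the mesothelial list 454 to 1484 and 174 to 679, and the pericyte list 637 to 858 and 930.5 to 3113. The smooth muscle list stood at 2524 CPM in SHR replicate 3 and 9053 in WKY replicate 3, against 819 to 1103 in batch 1. Macrophage genes summed to 13.6 to 28.9 CPM in SHR and 5.35 to 28.9 in WKY, with 11 of 13 below 1 CPM throughout, and capillary endothelial genes to 18.8 to 52.5 and 7.83 to 18.8. These are therefore called aortic explant cells here.

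**Figure D1:**
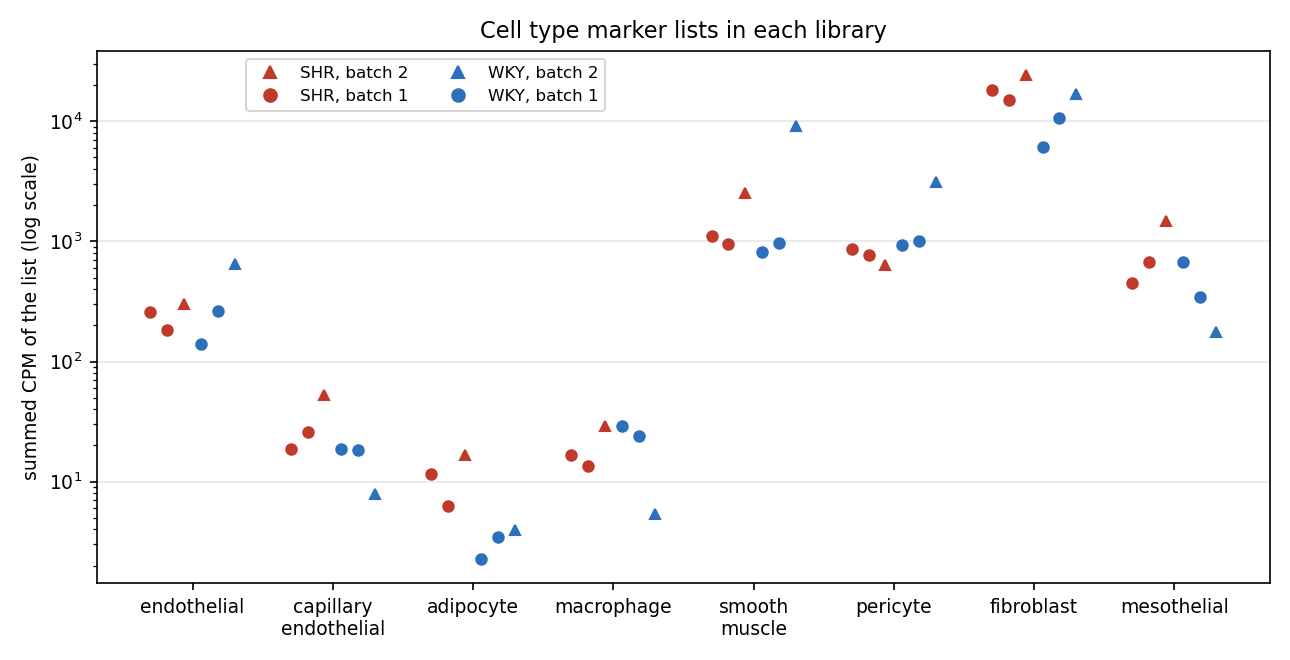
Summed CPM of each cell type marker list (log axis) in each library; every point is 1 library, red for SHR and blue for WKY, triangles for batch 2 and circles for batch 1. Smooth muscle genes are highest in the batch 2 libraries (2524 and 9053 CPM), while adipocyte and macrophage sums stay below 30 CPM in all 6 libraries.

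Between the strains, none of the 10 genes passed the test. Lpl and Lipe stood higher, by a large factor, in every SHR library than in any WKY library. Of all tested genes 4.51% showed that order. Lipe passed the filter through the SHR libraries alone, so its place there does not count as support. Between the batches 6 of the 10 passed: Cd36, Pnpla2 and Cpt1a rose in batch 2, and Fabp3, Fabp5 and Plin2 fell. Passing was common between batches, with 43.5% of all tested genes (21% higher and 22.5% lower in batch 2). Levels are given in CPM, the count scaled to the size of its library, which is not divided by gene length, so levels are not compared between genes. In RNA from a whole culture, fewer cells of a type and less RNA per cell cannot be told apart. Differences were tested over all genes with the quasi-likelihood test of edgeR with batch and strain as terms, and a gene was called, and is said to have risen or fallen, at a Benjamini-Hochberg adjusted p below 0.05.

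**Figure D2:**
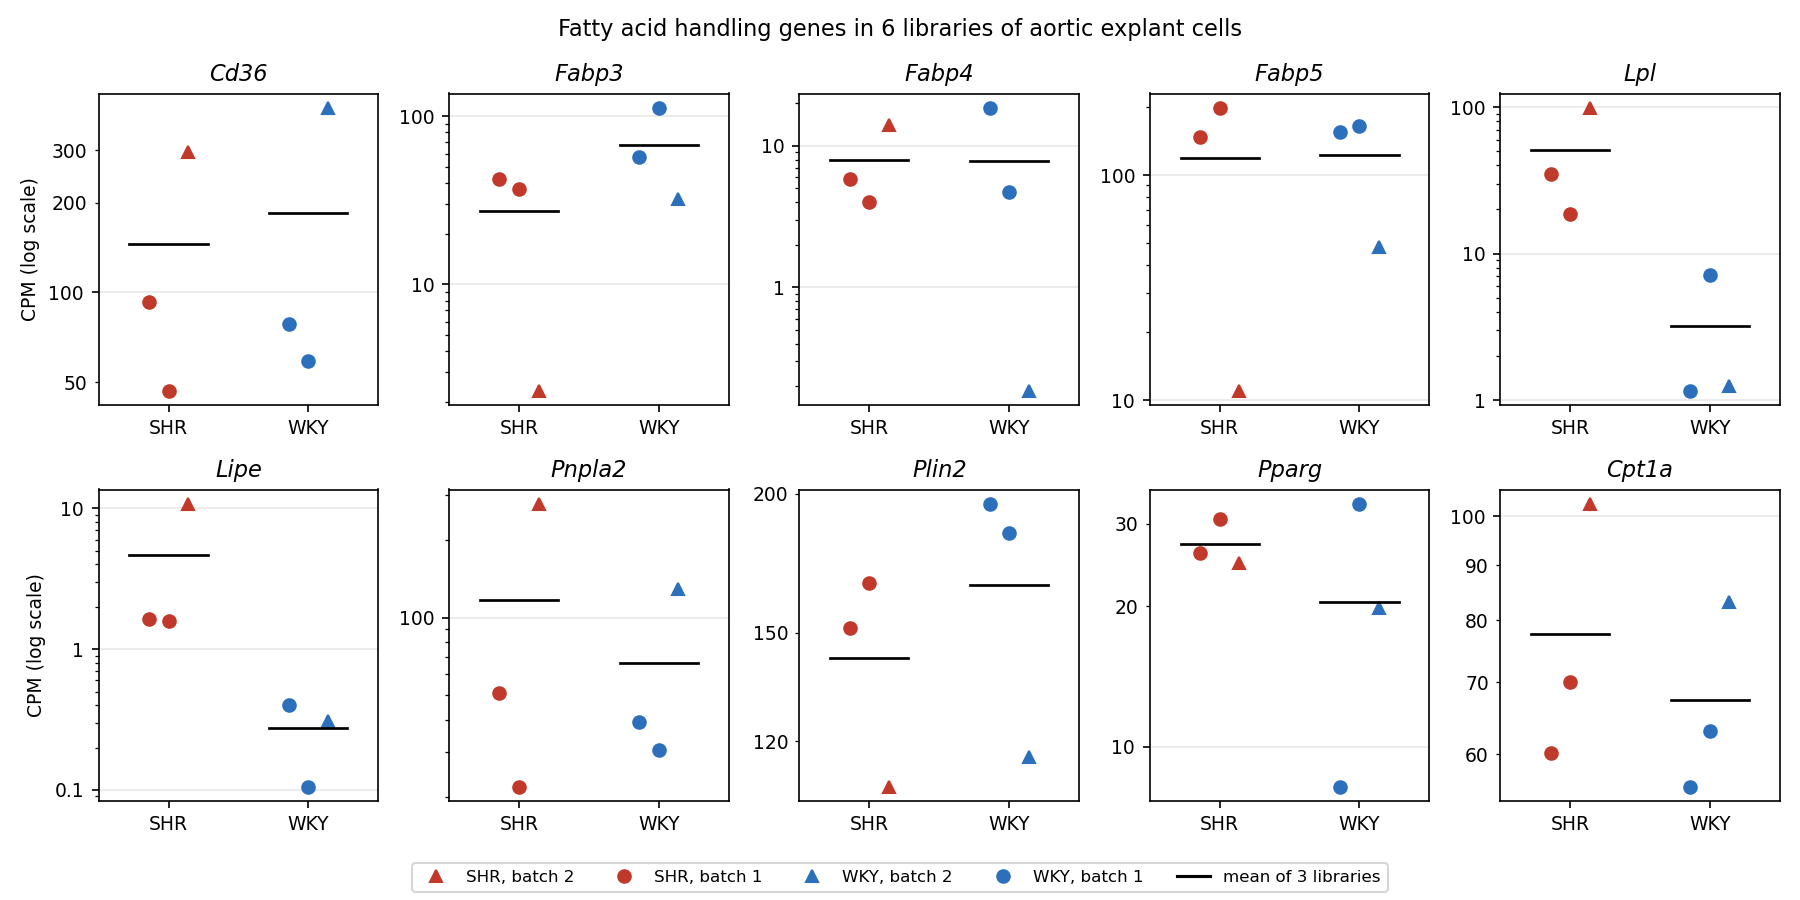
CPM of each of the 10 genes (log axes, each panel with its own range) in 3 SHR and 3 WKY libraries; points are libraries, triangles batch 2 and circles batch 1, and bars the mean of the 3 libraries of a strain. The strains separate completely for Lpl (18.7 to 99.0 against 1.16 to 7.14 CPM) and Lipe (1.58 to 10.8 against 0.106 to 0.404 CPM), whereas Cd36 separates by batch. Of all tested genes 9.81% separate by strain and 57.6% by batch.

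Cd36 encodes the fatty acid translocase, a scavenger receptor that also binds oxidised lipoproteins and thrombospondin. Some SHR colonies are known to carry a defective Cd36 gene and others an intact one; the labels do not name the colony, and a count per gene does not show the allele. Cd36 (gene identifier 29184) had 93.0, 46.9 and 296 CPM in SHR replicates 1 to 3, against 78.5, 59.0 and 417 CPM in WKY replicates 1 to 3. Both batch 2 libraries lay far above the 4 of batch 1, and the strains overlapped. The mean was 145 ± 133 CPM in SHR and 185 ± 202 CPM in WKY (SD, n = 3 each). The fitted strain difference was -0.15 on the log2 scale (SE 0.30) and was not called, at an adjusted p of 0.863. The difference of SHR minus WKY in log2 CPM was -0.49 in batch 2 and -0.04 in batch 1.

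Across batches Cd36 rose 5.10-fold, to a mean of 357 CPM in the 2 libraries of batch 2, against 69.3 ± 20.4 CPM in batch 1 (SD, n = 4). The fitted log2 fold change was 2.35 (SE 0.31, adjusted p = 0.00347), and the rise was 2.16 within SHR and 2.62 within WKY on the log2 CPM scale. Among all tested genes 43.5% were called between batches, so a call of this kind is common in these libraries. Refits that each dropped 1 library gave Cd36 changes of 2.07 to 2.64 and adjusted p of 0.00752 to 0.0300. The estimated counts of Cd36 were not whole in any of the 6 libraries, as happens where reads are shared with another sequence, so its level carries that uncertainty.

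Likeness to Cd36 was measured across 9985 other tested genes averaging 5 CPM or more. Genes known only by a locus name were left out, so the ranks do not cover them. The measure was the root mean square difference of log2 CPM over the 6 libraries, each gene centred on its own mean. The closest was Crtap, a collagen prolyl hydroxylation cofactor (0.15), followed by Mansc1 (0.20), the farnesyltransferase subunit Fntb (0.23), the chromatin remodelling subunit Bicra (0.25) and the kinase Dyrk1b (0.26). Crtap had 2.62, 1.58 and 11.4 CPM in SHR replicates 1 to 3, against 2.47, 1.64 and 13.9 CPM in WKY replicates 1 to 3. All 5 were higher in batch 2, by 2.06 to 2.71 on the log2 scale, which follows from choosing them by likeness to Cd36. Of the other fatty acid genes, Pnpla2 came nearest (0.47, rank 177) and Cpt1a next (0.97, rank 2457), while Fabp4 ranked last (2.69, rank 9803); Lipe averaged below 5 CPM and was not ranked.

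Pnpla2 was the member nearest to Cd36, at rank 177, and 21% of all tested genes were called higher in batch 2. The promoters of both are shown, from 250 bases before to 50 bases after the start that RefSeq lists. They are given 5′ to 3′ on the gene's strand in the GRCr8 assembly. A shared cause of their batch change was not tested. Capitals mark the matches of 5 motifs searched on both strands: the direct repeat AGGTCANAGGTCA bound by PPAR with its partner RXR, its half-site AGGTCA (which the direct repeat contains), the TATA box TATAAA, the GC box GGGCGG and the forkhead motif GTAAACA.
Cd36 promoter, chr4:18246332-18246631, plus strand: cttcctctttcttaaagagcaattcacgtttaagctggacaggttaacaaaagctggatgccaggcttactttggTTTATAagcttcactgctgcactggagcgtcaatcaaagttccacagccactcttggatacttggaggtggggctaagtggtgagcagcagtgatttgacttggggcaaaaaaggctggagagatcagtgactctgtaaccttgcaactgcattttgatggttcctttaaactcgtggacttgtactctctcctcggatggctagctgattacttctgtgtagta
Pnpla2 promoter, chr1:205982029-205982328, plus strand: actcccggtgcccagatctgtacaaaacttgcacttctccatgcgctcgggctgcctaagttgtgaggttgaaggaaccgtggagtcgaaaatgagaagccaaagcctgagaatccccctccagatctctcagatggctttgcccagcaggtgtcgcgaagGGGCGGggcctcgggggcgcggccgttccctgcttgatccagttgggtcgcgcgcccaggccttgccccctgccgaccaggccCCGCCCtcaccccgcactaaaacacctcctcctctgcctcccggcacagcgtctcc

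The Cd36 window held TATAAA on the opposite strand, from -175 to -170 of the start, and the Pnpla2 window held 2 GC boxes, at -89 to -84 on the plus strand and -6 to -1 on the opposite strand. Neither window held the direct repeat, its half-site or the forkhead motif in these letters. Promoters were listed for 6 of the 10 genes (8 windows, since Plin2 and Pparg have 2 each), and 0 of the 8 held the direct repeat, the half-site or the forkhead motif, while 2 held TATAAA and 3 GGGCGG. Of 33469 rat promoter windows of the same length, 0.0538% held the direct repeat, 16.2% the half-site, 14.2% TATAAA, 33.1% GGGCGG and 3.78% GTAAACA.

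Lpl encodes the lipase that hydrolyses triglyceride of chylomicrons and very low density lipoproteins; it is made by parenchymal cells and macrophages and carried to the capillary lumen. Lpl (gene identifier 24539) had 35.1, 18.7 and 99.0 CPM in SHR replicates 1 to 3, against 1.16, 7.14 and 1.24 CPM in WKY replicates 1 to 3. Every SHR library lay above every WKY library, and the lowest SHR and highest WKY values both came from replicate 2. The mean was 50.9 ± 42.4 CPM in SHR and 3.18 ± 3.43 CPM in WKY (SD, n = 3 each), a fitted 13.1-fold difference (log2 fold change 3.71, SE 1.08). It was not called (unadjusted p = 0.0174, adjusted p = 0.279), and an exact two-sided permutation test of log2 CPM gave p = 0.1, the smallest value that 3 against 3 libraries allow.

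Within batches Lpl was higher in SHR by 6.20 in batch 2 and 3.09 in batch 1 on the log2 CPM scale, and refits that each dropped 1 library gave 2.70 to 5.31, at adjusted p of 0.0727 to 0.581. The DESeq2 Wald test called it (adjusted p = 0.0231; 0.0231 to 0.774 over all 13 alternatives). The batches differed in opposite directions in the strains: SHR replicate 3 was higher than the other SHR libraries by 1.95 and WKY replicate 3 lower than the other WKY libraries by 1.17 on the log2 CPM scale. That opposition was not called (interaction 3.61, SE 1.67, unadjusted p = 0.0966, adjusted p = 0.471).

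Lipe, the hormone-sensitive lipase that cleaves diglyceride and cholesteryl esters, followed the same order at low counts. Lipe (gene identifier 25330) had 1.63, 1.58 and 10.8 CPM in SHR replicates 1 to 3, from 31, 31 and 208 counts, against 0.404, 0.106 and 0.311 CPM in WKY replicates 1 to 3, from 8, 2 and 5 counts. The WKY libraries lay near the 0.151 to 0.187 CPM that a count of 3 is worth, and the gene passed the filter through the SHR libraries alone. RefSeq places a noncoding gene over part of Lipe, and over part of Cpt1a, and whether counting used strand is not stated. The mean was 4.67 ± 5.32 CPM in SHR and 0.274 ± 0.153 CPM in WKY (SD, n = 3 each), a fitted 11.1-fold difference (log2 fold change 3.48, SE 0.74). That value was 2.62 without SHR replicate 3 or without WKY replicate 3, and 4.57 without WKY replicate 1. It was not called (unadjusted p = 0.00371, adjusted p = 0.187), although the DESeq2 Wald test called it (adjusted p = 0.000765; 0.000765 to 0.795 over all 13 alternatives). The exact two-sided permutation test gave p = 0.1 here too.

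Lpl and Lipe are both abundant in fat cells, so adipocyte markers are given beside them. Summed over 8 measured genes they reached 6.22 to 16.5 CPM in SHR and 2.27 to 3.98 CPM in WKY, without overlap. The glucose transporter gene Slc2a4 had 10.9, 5.51 and 6.91 CPM in SHR replicates 1 to 3, against 0.606, 2.64 and 1.06 in WKY. In batch 1 Slc2a4 made up most of each SHR sum. Cidea ran the other way, at 0.420, 0.459 and 2.34 CPM in SHR replicates 1 to 3, against 1.62, 0.846 and 2.74 in WKY. Leptin (Lep) was at 0 in every library and adiponectin (Adipoq) at 0 in all but SHR replicate 3 (1.66 CPM), which also held Plin1 (2.55 CPM) and Cfd (2.60 CPM). In batch 1, with Adipoq at 0 in all 4 libraries, the fitted differences were 2.70 for Lpl (adjusted p = 0.471) and 2.61 for Lipe (adjusted p = 0.337). Of 12 fibroblast genes 7 were higher in SHR at an unadjusted p below 0.05, against 6.1% of all tested genes. Of the 12, 1 was called higher, against 0.103%. Dpt (at most 0.740 CPM in WKY) and Tcf21 (at most 0.124) passed the filter only through their SHR counts. Their place among the 12 does not count as support. Of 7 tested mesothelial genes 2 were higher in SHR at an unadjusted p below 0.05, against 6.1% of all genes, and 0 were called. The mesothelial sum was highest in SHR replicate 3 (1484 CPM), where Lpl and Lipe were highest too. Krt7, a keratin gene, had 57.2, 127 and 103 CPM in SHR replicates 1 to 3, against 0.404, 2.85 and 0.373 in WKY. It passed the filter only through its SHR counts. Msln, the most abundant of the list, had 379, 455 and 758 CPM in SHR, against 620, 306 and 61.3 in WKY. Upk1b had 13.9, 30.3 and 173 CPM in SHR, against 40.0, 28.2 and 90.4 in WKY. Msln and Upk1b overlapped between strains. The part of adipocyte, fibroblast and mesothelial genes in the Lpl and Lipe differences was not tested.

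Against all genes, the strain result reads as follows. Of the 10 fatty acid genes 0 were called by edgeR, where 0.254% of all tested genes were called (32 genes, or 6 with the replicate block). At an unadjusted p below 0.05 there were 3 (Lpl and Lipe higher, Fabp3 lower in SHR), against 13.3% of all genes (6.1% higher and 7.18% lower). The DESeq2 Wald test called the same 3, against 5.33% of the genes it tested (2.77% higher and 2.56% lower). Of the 10, Lpl and Lipe had no overlap between strains, against 9.81% of all tested genes (4.51% with every SHR library above and 5.3% with every SHR library below). The median log2 fold change of the 10 genes was 0.21, beside -0.02 over all tested genes. Lipe entered the edgeR counts, the overlap count and the median only because its SHR counts were high enough to pass the filter. The DESeq2 test did not use that filter. The place of Lipe in any of these counts, that of DESeq2 included, or in the median does not count as support.

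**Figure D3:**
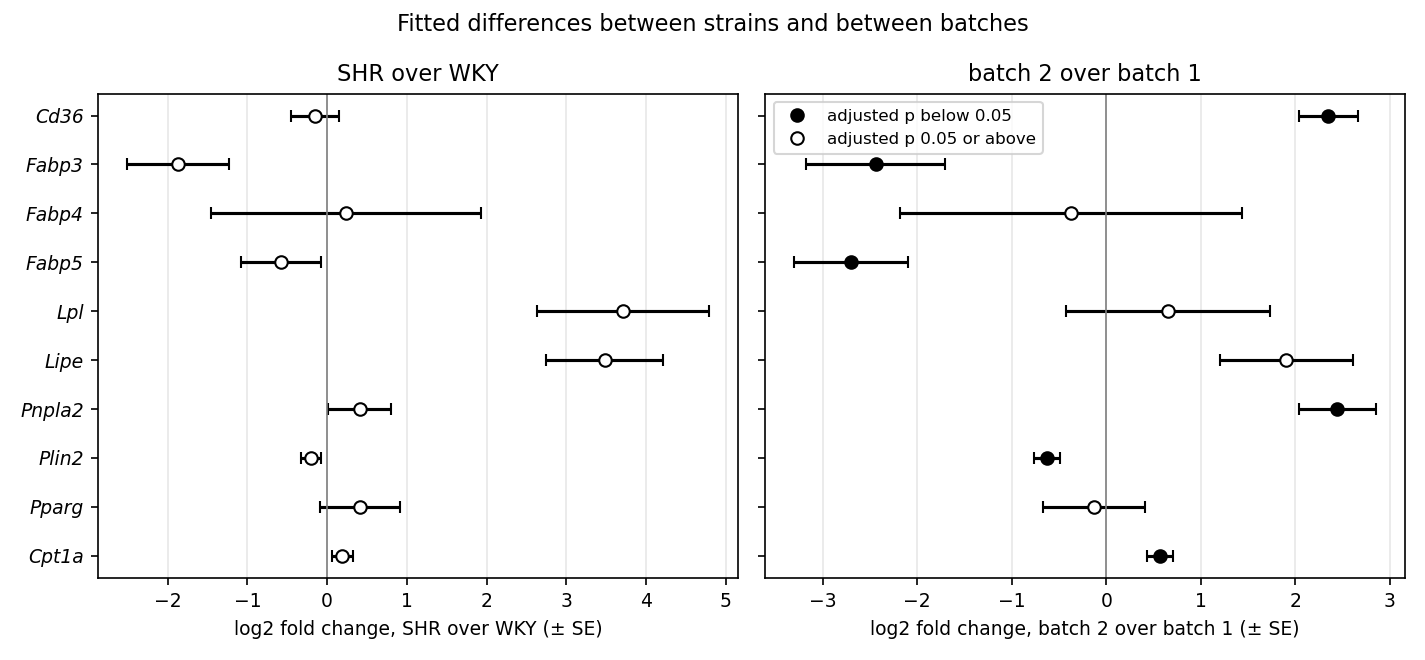
Fitted log2 fold changes of the 10 genes, SHR over WKY on the left and batch 2 over batch 1 on the right, with bars of 1 SE; filled points have an adjusted p below 0.05. No strain difference is filled, with Lpl (3.71) and Lipe (3.48) farthest from 0, and 6 batch differences are, 3 on each side of 0. Of all tested genes 0.254% were called between strains and 43.5% between batches.

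The 3 cytosolic binding proteins did not behave alike. Fabp3, the heart-type protein, had 42.2, 36.9 and 2.34 CPM in SHR replicates 1 to 3, against 57.2, 112 and 32.3 CPM in WKY replicates 1 to 3. Within each batch every SHR library was below every WKY library, and the strains overlapped only across batches. Fabp3 overlaps Zcchc17 in RefSeq, so its counts may include reads of that gene. The mean was 27.1 ± 21.6 CPM in SHR and 67.3 ± 41.0 CPM in WKY (SD, n = 3 each), with a log2 fold change of -1.87 (SE 0.64, unadjusted p = 0.0310, adjusted p = 0.337; DESeq2 adjusted p = 0.0259, the lowest of 0.0259 to 1.00 over 13 alternatives). That difference was -1.10 without replicate 3 of either strain and -2.43 without WKY replicate 1.

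Fabp5, the epidermal-type protein found in many cultured cells, had 148, 199 and 11.0 CPM in SHR replicates 1 to 3, against 155, 165 and 48.0 CPM in WKY replicates 1 to 3. The batch 1 libraries of both strains were close together, and both batch 2 libraries were low. The strain difference of Fabp5 (-0.58 on the log2 scale, SE 0.50) missed the threshold with an adjusted p of 0.663, and SHR minus WKY was -2.11 in batch 2 and 0.10 in batch 1 on the log2 CPM scale.

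Fabp4, the adipocyte-type protein that capillary endothelium and macrophages also make and a known target of PPAR gamma, was the most uneven of the 3. It had 5.88, 4.03 and 14.1 CPM in SHR replicates 1 to 3, against 18.6, 4.76 and 0.187 CPM in WKY replicates 1 to 3. Its highest and lowest libraries were both WKY. The batch 2 libraries held 271 counts in SHR and 3 in WKY, a ratio of 75.5 with a 95% exact counting interval of 25.6 to 368, which compares those 2 libraries and covers counting error only. The strains did not differ beyond that spread (log2 fold change 0.23, SE 1.69, adjusted p = 0.964).

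Between batches Fabp5 fell 6.49-fold, to a mean of 29.5 CPM in batch 2, against 167 ± 22.7 CPM in batch 1 (SD, n = 4; log2 fold change -2.70, SE 0.60, adjusted p = 0.0190). Without SHR replicate 3 the change was -1.74 and without WKY replicate 3 it was -3.99, both still called. Fabp3 fell 5.43-fold, to 17.3 CPM in batch 2, against 62.2 ± 34.6 CPM in batch 1 (log2 fold change -2.44, SE 0.73, adjusted p = 0.0462). That call was lost without SHR replicate 1 (adjusted p = 0.0840), SHR replicate 2 (0.0953), SHR replicate 3 (0.0798, with a change of -1.39) or WKY replicate 2 (0.114), while the change was -4.09 without WKY replicate 3. Fabp4 did not pass (adjusted p = 0.882), and without SHR replicate 3 it was called lower in batch 2 (log2 fold change -5.92, adjusted p = 0.0336).

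The strain difference in batch 2 minus that in batch 1 was tested as an interaction with 2 residual degrees of freedom. By edgeR 0 of 12614 genes passed after adjustment, with 12.7% of all genes at an unadjusted p below 0.05. Among the 10 fatty acid genes the 3 binding proteins had such a p. The interaction was -2.24 for Fabp5 (SE 0.34, unadjusted p = 0.00123, adjusted p = 0.160), 7.43 for Fabp4 (SE 1.58, unadjusted p = 0.00729, adjusted p = 0.243) and -2.68 for Fabp3 (SE 0.66, unadjusted p = 0.0120, adjusted p = 0.273). Each rests on the single pair of batch 2 libraries, and the Fabp4 value on a count of 3.

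**Figure D4:**
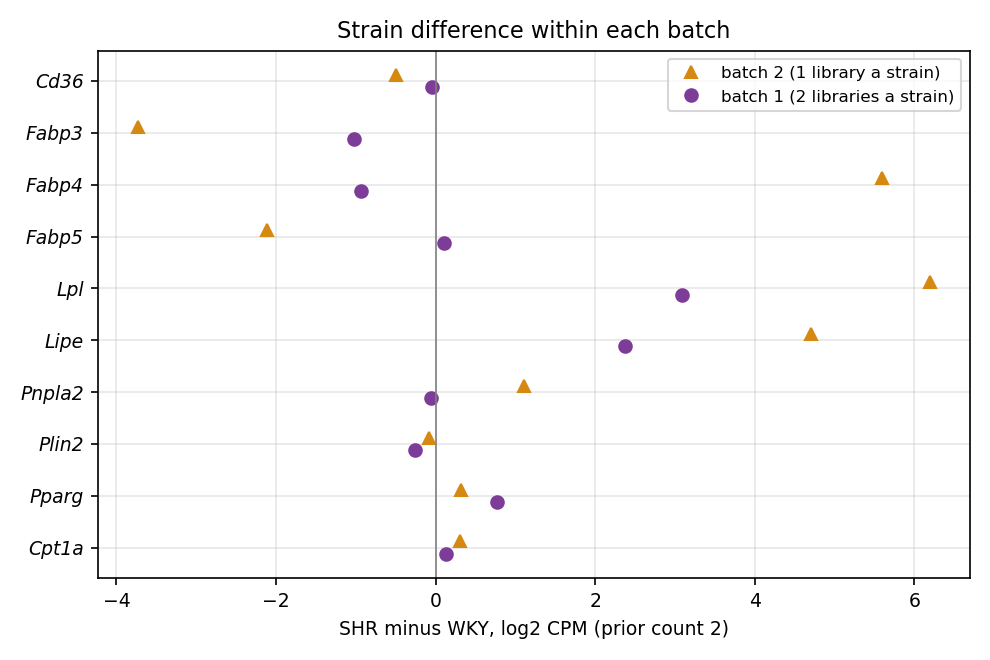
SHR minus WKY in log2 CPM (prior count 2) for each gene, triangles from the single pair of batch 2 libraries and circles from the 2 libraries a strain of batch 1. Lpl (6.20 and 3.09) and Lipe (4.71 and 2.38) lie right of 0 in both batches, while Fabp4 (5.60 and -0.94), Fabp5 (-2.11 and 0.10) and Pnpla2 (1.10 and -0.05) change side.

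Among storage and lipolysis genes, Pnpla2, which takes the first fatty acid off stored triglyceride, had 50.7, 21.9 and 278 CPM in SHR replicates 1 to 3, against 39.3, 30.5 and 129 CPM in WKY replicates 1 to 3. As with Cd36, the batch 2 library was the highest of each strain. It rose 5.45-fold in batch 2, to a mean of 204 CPM, against 35.6 ± 12.3 CPM in batch 1 (SD, n = 4; log2 fold change 2.45, SE 0.40, adjusted p = 0.00749). The call was lost without SHR replicate 3 (log2 fold change 1.89, adjusted p = 0.0529). Its strain difference was 0.41 (SE 0.40, adjusted p = 0.702), or 1.10 in batch 2 and -0.05 in batch 1 on the log2 CPM scale, and its estimated counts were not whole in 4 of the 6 libraries.

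Plin2, the droplet coat protein of cells outside fat tissue, was among the most even of the 10, its highest library 1.79 times its lowest. It had 152, 166 and 109 CPM in SHR replicates 1 to 3, against 196, 184 and 116 CPM in WKY replicates 1 to 3. Within each batch SHR was below WKY, by 0.09 in batch 2 and 0.26 in batch 1 on the log2 CPM scale, and the fitted difference of -0.20 (SE 0.13) was not called (adjusted p = 0.551). Plin2 fell 1.54-fold in batch 2, to 113 CPM, against 175 ± 19.6 CPM in batch 1 (log2 fold change -0.63, SE 0.14, adjusted p = 0.0161), a call lost without WKY replicate 3 (adjusted p = 0.0780).

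Cpt1a, the liver-type carnitine palmitoyltransferase of the outer mitochondrial membrane, had 60.2, 70.1 and 103 CPM in SHR replicates 1 to 3, against 56.0, 63.0 and 83.3 CPM in WKY replicates 1 to 3. The highest library was 1.83 times the lowest, and the batch 2 library led in both strains. Cpt1a rose 1.49-fold in batch 2, to 93.0 CPM, against 62.3 ± 5.94 CPM in batch 1 (log2 fold change 0.57, SE 0.14, adjusted p = 0.0203). That call was lost without SHR replicate 1 (adjusted p = 0.0548), SHR replicate 3 (0.104), WKY replicate 1 (0.0550) or WKY replicate 3 (0.0541). The strain difference was 0.19 (SE 0.13, adjusted p = 0.591).

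Pparg had 26.0, 30.8 and 24.8 CPM in SHR replicates 1 to 3, against 8.23, 33.1 and 19.8 CPM in WKY replicates 1 to 3. The SHR libraries were close together and lay inside the range of the WKY libraries. The mean was 27.2 ± 3.17 CPM in SHR and 20.4 ± 12.5 CPM in WKY (SD, n = 3 each), and neither the strain difference (log2 fold change 0.41, SE 0.50, adjusted p = 0.757) nor the batch difference (-0.13, SE 0.54, adjusted p = 0.862) was called.

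Between batches 6 of the 10 genes were called, 3 in each direction, against 43.5% of all tested genes (21% higher and 22.5% lower), and the same 6 had no overlap between batches, against 57.6%. The median log2 fold change of the 10 was 0.22, beside -0.00 over all tested genes. Smooth muscle genes moved with these changes: 7 of 9 tested were higher in batch 2 and 0 lower, and of 12 fibroblast genes 4 were higher and 0 lower. Their part in the batch differences of the 10 genes was not tested.

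Other genes of fatty acid handling were counted from 7 lists chosen by function. Of 101 tested genes 0 were called between strains, and 8 were higher and 7 lower in SHR at an unadjusted p below 0.05 (14.9%, against 13.3% of all genes). The DESeq2 Wald test called 6 higher and 4 lower of the 122 in the table. Over all genes it called 5.33% of the 13686 that it gave an adjusted p (2.77% higher and 2.56% lower). The 122 include any genes without an adjusted p, so no share of them is given. Between batches 33 were higher and 15 lower in batch 2 (47.5%, against 43.5% of all genes, 21% higher and 22.5% lower), and 29 passed without SHR replicate 2.

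The uptake list held partners of lipoprotein lipase, transporters and lipoprotein receptors, of which 13 were tested, 5 higher and 2 lower in batch 2 (53.8%, against 43.5% of all genes). Vldlr, a receptor that binds triglyceride-rich lipoproteins, had 59.0, 49.7 and 113 CPM in SHR replicates 1 to 3, against 104, 112 and 549 CPM in WKY replicates 1 to 3. Its strain difference was -1.42 on the log2 scale (SE 0.30, adjusted p = 0.185; DESeq2 adjusted p = 0.000804), opposite in sign to that of Lpl. The acyl-CoA synthetase transporter Slc27a1 had 37.1, 35.1 and 95.2 CPM in SHR, against 54.6, 50.1 and 131 CPM in WKY, lower in SHR within each batch (log2 fold change -0.51, SE 0.11, adjusted p = 0.203). Slc27a1 and caveolin 1 (Cav1) rose in batch 2 by 1.36 and 1.46 on the log2 scale, and Got2, a mitochondrial transaminase also described as a fatty acid binding protein of the plasma membrane, fell by 1.16.

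Of 5 tested genes in the list of other binding proteins 1 was called between batches (20%, against 43.5% of all genes): Dbi, the acyl-CoA binding protein, fell to 47.4 CPM in batch 2, against 145 ± 9.10 CPM in batch 1. Of 5 acyl-CoA synthetases 1 was higher and 2 lower in batch 2 (60.0%, against 43.5%). Acss2, which activates acetate, had 27.6, 25.3 and 45.7 CPM in SHR replicates 1 to 3, against 11.2, 13.5 and 37.4 CPM in WKY (log2 fold change 0.83, SE 0.21, adjusted p = 0.238), and rose in batch 2 by 1.21. Acsl1 and Acsl5, which activate long-chain fatty acids, fell by 0.63 and 0.94 on the log2 scale in batch 2.

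In the list of triglyceride synthesis and droplet proteins 6 of 18 were higher and 6 lower in batch 2 (66.7%, against 43.5% of all genes). Gpat4, which starts glycerolipid synthesis, fell by 1.08 on the log2 scale, as did the phosphatidate phosphatase Lpin2, by 0.84, while the droplet protein Plin4 rose by 1.35. Of 9 further lipolysis genes 3 were higher and 1 lower (44.4%, against 43.5%). Abhd5, the coactivator of the Pnpla2 enzyme, fell to 36.9 CPM in batch 2, against 61.2 ± 8.68 CPM in batch 1 (log2 fold change -0.73, adjusted p = 0.00627), opposite to Pnpla2. Mgll, which cleaves monoglyceride in the last step of lipolysis, had 2.62, 4.95 and 26.3 CPM in SHR replicates 1 to 3, against 33.3, 15.3 and 66.9 CPM in WKY replicates 1 to 3. It was lower in SHR within each batch (log2 fold change -2.22, SE 0.49, adjusted p = 0.212; DESeq2 adjusted p = 0.000374), opposite in sign to Lipe.

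Of 30 tested oxidation genes 7 were higher and 3 lower in batch 2, 33.3% against 43.5% of all genes. Acaa2, the thiolase of the last step of mitochondrial beta-oxidation, had 106, 85.3 and 110.0 CPM in SHR replicates 1 to 3, against 33.3, 43.6 and 50.3 CPM in WKY replicates 1 to 3. All SHR libraries lay above all WKY libraries, the replicates were close, and the difference of 1.25 on the log2 scale (SE 0.17) was nearest to the threshold among the named pathway genes (unadjusted p = 0.000373, adjusted p = 0.0798; DESeq2 adjusted p = 6.82e-08). Echs1, the enoyl-CoA hydratase of the same pathway, had 31.0, 44.2 and 33.1 CPM in SHR, against 26.7, 23.9 and 15.2 CPM in WKY (log2 fold change 0.75, SE 0.20, adjusted p = 0.251). Pdk4, a kinase that turns glucose oxidation down and a known PPAR target, rose 13.5-fold in batch 2 (adjusted p = 0.00703). The batch 2 libraries were unlike, at 192 CPM in SHR replicate 3 and 43.3 in WKY replicate 3. Their mean was 118 CPM, against 7.38 ± 5.09 CPM in batch 1. Cpt1c, a brain-type relative of Cpt1a, rose 3.08-fold.

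Of 21 PPAR and partner regulators 11 were higher and 0 lower in batch 2 (52.4%, against 43.5% of all genes, 21% higher and 22.5% lower), with a median log2 fold change of 1.06, beside -0.00 over all tested genes. Ppard, the widely expressed relative of Pparg, had 90.3 and 111 CPM in the batch 2 libraries of SHR and WKY, against 35.0 to 44.5 CPM in batch 1 (log2 fold change 1.36, SE 0.16, adjusted p = 0.00277). Foxo1, a forkhead factor known in mouse fat cells to turn on Pnpla2, rose 5.78-fold, and Prdm16, a regulator of brown fat, 5.61-fold. Between strains Nr1h3, the liver X receptor alpha gene, had 16.1, 15.2 and 17.3 CPM in SHR, against 10.4, 12.4 and 6.34 CPM in WKY, without overlap (log2 fold change 0.78, SE 0.25, adjusted p = 0.299).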

How the data were processed

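The authors deposited estimated counts per gene, not normalized, 1 column per library, from paired-end 100 bp reads. The genome build Rnor_6.0 and the tools RSEM 1.2.28, Bowtie2 2.4.4 and DESeq2 1.42.1 are listed, with no role stated, per the submitters' processing notes. Strand handling and the treatment of reads shared by similar genes are not given in the sources used here. Non-whole numbers made up 8.96% of the values (tolerance 0.001). The log2 values that the authors also deposited were not used.

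Estimated counts were rounded and filtered with filterByExpr by strain. Libraries were scaled by TMM factors (0.873 to 1.07). Strains and batches were tested with edgeR 4.0.16 in R 4.3.3 (robust quasi-likelihood F-test, batch and strain as terms, 3 residual degrees of freedom, two-sided), adjusted over all 12614 genes tested. Fold changes, on the log2 scale, put SHR over WKY and batch 2 over batch 1, with SE from the F statistic; per-library log2 CPM used a prior count of 2. DESeq2 1.42.0 was an alternative, run without the filterByExpr step. A count of 3, the limit that a count of 0 allows, equalled 0.151 to 0.187 CPM, for counting error only. The code was tested on simulated data.

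The members and lists were chosen with earlier results of these data known. Named were the 10 members and the 5 genes most like Cd36. The rule for each pathway list was the 3 genes with the smallest p for each contrast at a mean of at least 5 CPM. For each marker list it was the 3 most abundant genes. Not all of these pathway and marker genes are printed, and some marker lists are given only as sums. Other markers are named because they define a cell type. Same-numbered libraries deviated together from their strain means (correlation across genes 0.30, 0.40 and 0.66 for replicates 1, 2 and 3), which includes the shared batch. The numbers were treated as pairing only in the replicate block alternative. The main fit had batch and strain as terms and did not pair libraries. Within batch 1 the difference of replicates 1 and 2 correlated at -0.20 between strains. Promoters came from RefSeq (GRCr8), where all 10 members matched by gene identifier.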

Additional observations from a re-analysis of the deposited data

How the results depend on the processing

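For the strain comparison, 0 of the 10 genes were called by edgeR in the full fit and under 12 alternatives, and 3 by the DESeq2 Wald test. Over all genes 32 were called, 730 by DESeq2, 2 without the batch term, 6 with the replicate block (paired by number), and 0 to 65 with 1 library left out. The pathway lists had 0 calls by edgeR and 10 by DESeq2. Lpl, Lipe, Plin2, Pnpla2, Pparg, Cpt1a and Fabp3 kept their sign under all 13 alternatives. In batch 1 libraries only, the sign turned for Cd36 (0.023), Fabp4 (-1.24) and Fabp5 (0.11), none of them called in any fit. With 1 library left out they ranged from -0.51 to 0.046, -1.24 to 1.76 and -0.90 to 0.12, and the cause was not tested.

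For the batch comparison, Cd36 and Fabp5 were called under all 11 alternatives, and 4 to 7 of the 10 genes in each. The call of Fabp3 was lost with no expression filter (adjusted p = 0.0639) and with no strain term (0.198). Lipe was called by DESeq2 (0.0448), without WKY replicate 1 (0.0145) and without WKY replicate 3 (0.0299). With 1 library left out the changes of Lpl (-1.73 to 1.87) and Pparg (-0.44 to 0.43) changed sign and were called in no fit, that of Fabp4 ranged from -5.92 (called, without SHR replicate 3) to 1.50, and 29 to 38 pathway genes were called, against 48. Fits without a library have fewer residual degrees of freedom, and without replicate 3 of a strain batch 2 is 1 library, assumed to vary like the others. Summing members with named copies was not run, since no row of the count table was named as a copy. Precision was limited by 3 libraries a strain; at low counts Lipe in WKY and Fabp4 in WKY replicate 3 lay near the counting floor.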
